A study of Gallus gallus with 24 samples.

Results

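The comparison described here set 6 broilers challenged with S. pullorum and fed honokiol (SPH) against 6 challenged broilers on the basal diet (SP), in ileum RNA at 14 days of age. The members were chosen by the group labels of the birds and by expression: 12 of the 24 birds of the series entered, and 13431 of the 25339 genes of the table had a mean FPKM (fragments per kilobase of gene, scaled to the depth of the library) of at least 1 over those 12 birds. All 12 chicks received 0.5 mL of an oral S. pullorum suspension at 5 days of age. The SP chicks had no supplement, and the SPH chicks had 300 mg/kg honokiol in the feed. An unchallenged group on the basal diet (CTL, 6 birds) and a challenged group fed 300 mg/kg magnolol (SPM, 6 birds) are used only where their levels are set beside those of the SP and SPH birds. Per the labels, each replicate of a group gave 1 chick, so the 6 values of a group come from separate birds.

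S. pullorum is the Salmonella serovar behind pullorum disease of young chicks, and it enters through the gut. Honokiol is a biphenol of magnolia bark and a positional isomer of magnolol. Birds have no lymph nodes of the mammalian kind, and much of their mucosal immunity is organised in lymphoid tissue of the gut wall, where CXCL13 from stromal cells attracts CXCR5-bearing B cells into follicles and CCL19 attracts CCR7-bearing T cells and dendritic cells to the zones around them. The epithelium around this tissue absorbs bile acids, sugars and lipids.

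The reads assigned to genes, recovered from the FPKM and gene length, numbered 14861134 to 19300455 in the SP birds and 15307157 to 17450920 in the SPH birds. Transcripts of the W chromosome, which only hens carry, were present in SP 4, SP 5 and SP 6 and in SPH 2, SPH 4 and SPH 5, so each group held 3 birds with and 3 without them. The first principal component, with 24.9% of the variance, separated these birds from the others. The ileal marker FABP6 lay between 1743 and 4584 FPKM in all 12 birds. The extraction text in the labels speaks of retina, but the 18 photoreceptor and pigment epithelium entries found in the table summed to 4.38 to 6.97 FPKM per bird and 3 of them were at 0 in every bird.

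No gene passed the limits of an adjusted p under 0.05 and a log2 difference beyond 0.5 (0 of 13431 genes, 0%, limma with Benjamini-Hochberg adjustment). The smallest adjusted p of the fit was 0.378, and limma-voom on the recovered reads also called 0 genes. Without adjustment 1267 genes had a p under 0.05, of which 431 also differed by more than 0.5 on the log2(FPKM + 0.1) scale. Of these, 305 were lower in the SPH birds (2.27% of all genes tested) and 126 were higher (0.938%). These 431 genes are a description of where the birds differed and not a set of proven differences. Most genes lay close together in both groups: the median log2 difference over all genes was 0.00149, 93.6% of genes were within 0.5, and the median standard error was 0.134. Over all genes 49.6% lay below 0 and 50.4% above.

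Of the 305 lower genes, 74 were lower by more than 1 on the log2 scale and 27 by more than 2, and 61 belonged to the 205 tested members of 11 immune lists. Of the 126 higher genes, 14 were higher by more than 1 and 1 belonged to those lists. The 11 lists were those of interferon, antigen presentation, B cells, plasma cells, T cells, cytotoxic cells, macrophages and dendritic cells, and heterophils. Chemokine ligands, chemokine receptors and lymphocyte cytokine receptors made up the rest. The IL-17 and IL-22 axis (1 member past the limits and higher, 0 lower) and epithelial defence (1 higher, 1 lower) were not among them. A single bird carried much of the lower side: SP 5 had the highest of the 12 values in 249 of the 305 genes. Without SP 5 the lower genes numbered 186, of which 176 were among the 305, and the higher genes numbered 122. The groups did not overlap for 37 genes with every SPH bird below every SP bird (0.275% of genes tested) and for 15 genes with every SPH bird above (0.112%).

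**Figure D1:**
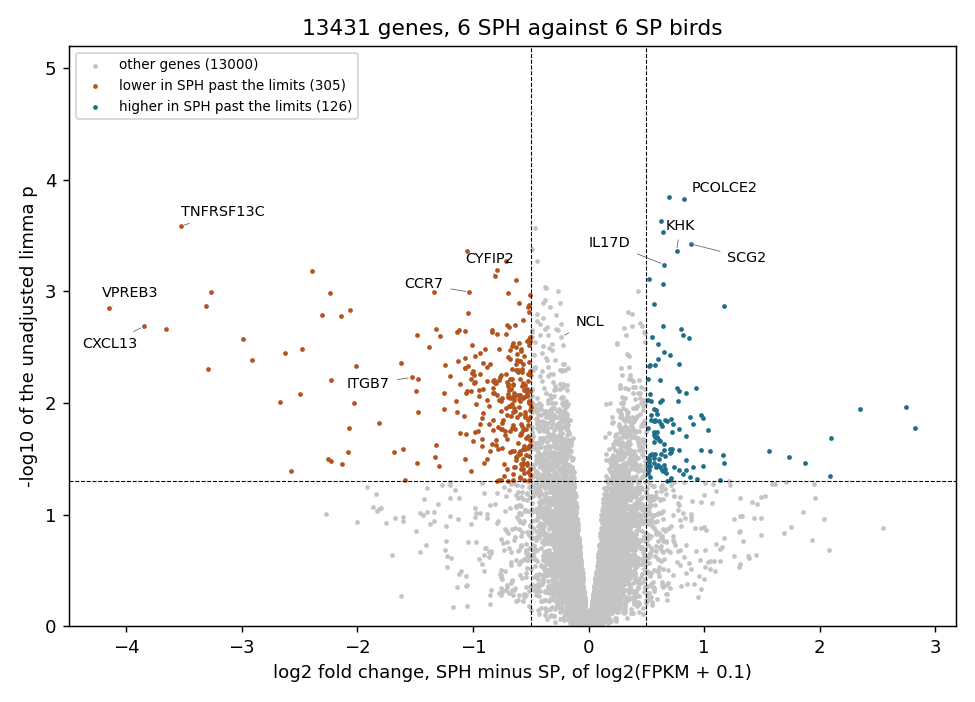
Each point is 1 of 13431 genes, with the log2 difference of SPH minus SP on the x axis and −log10 of the unadjusted limma p on the y axis, and dashed lines at a p of 0.05 and differences of −0.5 and 0.5. The 305 lower genes reach further from 0 than the 126 higher genes, and none of the points passed the adjusted limit.

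Genes of B cells and follicles were the most displaced group. Of 28 tested members of this list, 27 lay below 0 and 17 were past the unadjusted limits in the lower direction, against 2.27% of all genes. The median log2 difference was −0.92. These values include members that passed the filter on mean FPKM through their SP birds, named below, and were not computed without them. CXCL13, CXCR5 and some other genes belong to more than 1 list. The count was between 13 and 20 when any 1 bird was left out. Every SPH bird lay below the median SP bird in the mean level of the list. This level was highest in SP 5 at 2.04, SP 6 at 1.27 and SP 1 at 1.08, and the highest SPH bird, SPH 3 at 0.35, lay above SP 2, SP 3 and SP 4. SP 5 had the highest value of the 12 birds in 24 of the 28 genes. In these bulk samples, fewer cells of a type and less RNA per cell cannot be told apart.

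CXCL13, the chemokine that recruits B cells to follicles (chromosome 4, 34983796 to 34985067 in GRCg6a coordinates), was at 5.23, 21.9 and 83.3 FPKM as the lowest, median and highest SP bird and at 0.309, 0.449 and 16.0 FPKM in the SPH birds. In 5 SPH birds it was below every SP bird, and SPH 3 was the exception. The log2 difference was −3.84 ± 1.00 (SE, n = 6 and 6) and the two-sided exact permutation p was 0.0152. All single-gene permutation tests below are two-sided tests over every regrouping of the 12 birds into 6 and 6. The smallest p they can give is 0.00216, which only restates that the groups did not overlap. The limma adjusted p of every gene named was 0.378 or higher.

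Beside CXCL13 on chromosome 4 lie 2 related chemokine genes, CXCL13L2 (34985338 to 34986964) and CXCL13L3 (34987276 to 34989334). CXCL13L2 had a lowest, median and highest level of 1.48, 9.71 and 30.2 FPKM in SP and 0.155, 0.534 and 15.4 FPKM in SPH birds (log2 difference −3.29 ± 0.97, exact permutation p = 0.0216). CXCL13L3 was a low gene, at 0.378 to 8.49 FPKM in SP and 0 to 0.467 FPKM in SPH birds (−2.47 ± 0.69, exact permutation p = 0.00433). SPH 3 was again the highest SPH bird in both genes. How reads shared by these neighbours were assigned is not given in the sources used here, so their separate levels are uncertain.

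CXCR5, the receptor for CXCL13, was at 1.3, 4.52 and 16.8 FPKM as the lowest, median and highest SP bird and at 0.0546, 0.220 and 1.99 FPKM in the SPH birds. SPH 3 alone overlapped the SP birds, and the log2 difference was −3.26 ± 0.77 (exact permutation p = 0.00866). TNFRSF13C, the BAFF receptor on which B cell survival depends, did not overlap between the groups. Its SP birds lay at 0.421 to 8.96 FPKM with a median of 1.70, and its SPH birds at 0 to 0.252 FPKM with 3 birds at 0 (−3.53 ± 0.71, exact permutation p = 0.00216). Between 0 and 143 reads per bird stood behind the TNFRSF13C values, and the log2 difference of a gene at or near 0 depends on the constant of 0.1. With every SPH bird under 1 FPKM, TNFRSF13C passed the filter on mean FPKM only through its SP birds, as did CXCL13L3. CXCR5 above and VPREB3, SRD5A2 and ASCL2 below also averaged under 1 FPKM in SPH birds and reached the filter through SP birds. The same may hold for CD72, PAX5 and TNFRSF8 below, whose lowest SPH birds were well under 1 FPKM. A gene let in this way has the higher mean in SP birds from the start, so its direction is no support. CXCL13L3, CXCR5, TNFRSF13C and VPREB3 are among the B cell list members counted as lower, as are CD72 and PAX5.

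VPREB3, a B lineage gene tied to assembly of the B cell receptor, showed the largest difference of any named gene. It lay at 0.614, 3.85 and 36.6 FPKM as the lowest, median and highest SP bird and at 0 to 1.44 FPKM in the SPH birds, with 3 of them at 0 (−4.14 ± 1.02, exact permutation p = 0.0108). SPH 3 and SPH 4 alone overlapped the SP birds. With 3 SPH birds at 0, the size of the VPREB3 difference depends on the constant of 0.1. CD72, a co-receptor that restrains B cell signalling, lay at 0.955 to 16.9 FPKM in SP and 0.0534 to 1.94 FPKM in SPH birds (−3.31 ± 0.81, exact permutation p = 0.0108).

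PAX5, the transcription factor that fixes B cell identity, and CD79B, a signalling chain of the B cell receptor, were lower as well. Both are members of the B cell list that were singled out after their values were seen. PAX5 lay at 0.981 to 9.50 FPKM in SP and 0.0216 to 2.14 FPKM in SPH birds (−2.99 ± 0.81, exact permutation p = 0.0152). CD79B lay at 2.39 to 26.0 FPKM in SP and 0.879 to 4.93 FPKM in SPH birds (−2.01 ± 0.59, exact permutation p = 0.0152). For both genes SPH 3 was the only SPH bird above the lowest SP bird. ST6GAL1, a sialyltransferase that makes the CD22 ligand on B cells and is also made elsewhere, lay at 27.7 to 48.6 FPKM in SP and 21.2 to 26.4 FPKM in SPH birds with no overlap (−0.51 ± 0.13, exact permutation p = 0.00216). BLNK, an adaptor of B cell receptor signalling and an abundant member of the list, showed no such pattern, with 26.6 to 38.1 FPKM in SP and 26.0 to 32.9 FPKM in SPH birds (−0.05 ± 0.09, exact permutation p = 0.636).

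A pair of genes near this pattern are no members of the list. SPIC, an ETS factor of B cells and macrophages that was picked after its values were seen, was at 2.35 to 38 FPKM in SP and 0.111 to 6.78 FPKM in SPH birds (−3.66 ± 0.96, exact permutation p = 0.0173). SRD5A2, a steroid 5-alpha-reductase, was at 0.876 to 5.94 FPKM in SP and 0.0966 to 1.03 FPKM in SPH birds (−2.23 ± 0.53, exact permutation p = 0.00649). In both genes SP 5 was the highest and SPH 3 the highest of its group, the same birds that stood out for CXCL13.

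**Figure D2:**
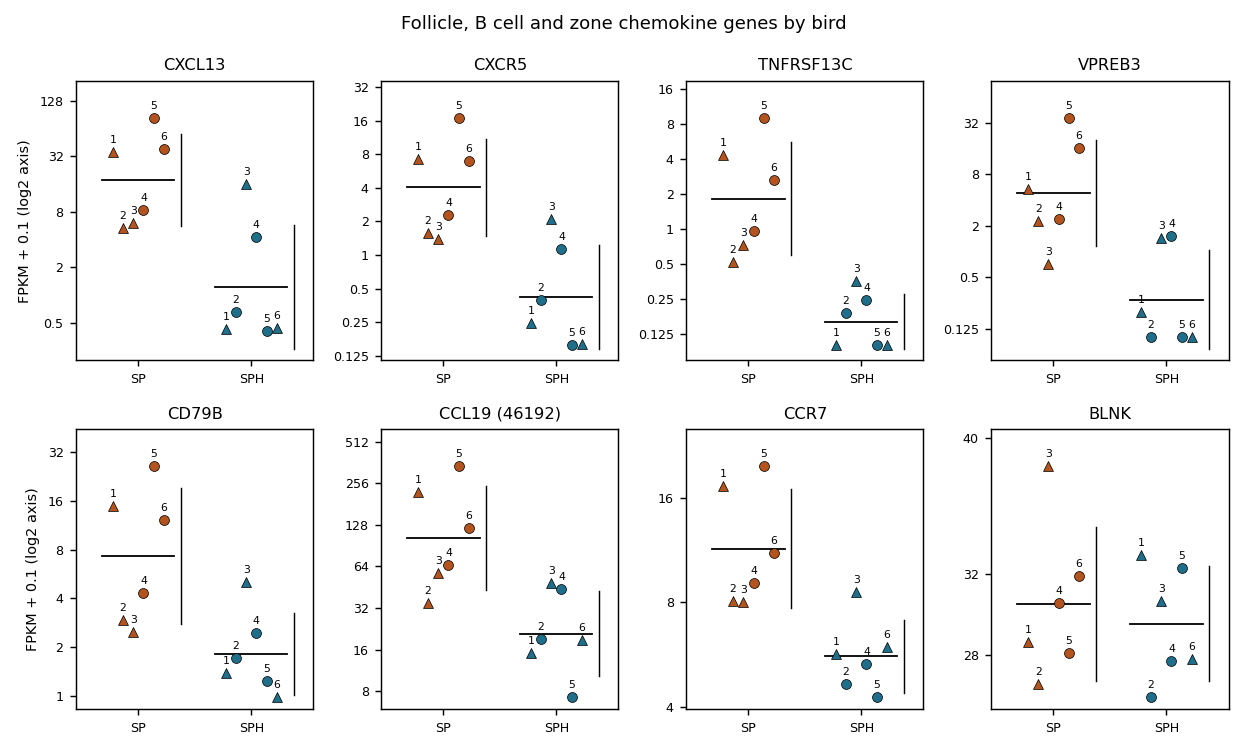
FPKM + 0.1 on a log2 axis for 8 genes in the SP and SPH birds, numbered by bird, with circles for birds with W transcripts and triangles for birds without. Horizontal lines are group means and vertical lines 1 SD on the log2 scale. SP 5 is the highest bird for every gene shown but BLNK, and SPH 3 reaches the SP range for CXCL13, CXCR5 and CD79B but not for TNFRSF13C.

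Chemokines and receptors of the zone around the follicle were lower as well. The table holds 2 entries named CCL19, next to each other on chromosome Z. The entry ENSGALG00000046192 (8370305 to 8373001) was at 34.7, 93.5 and 339 FPKM as the lowest, median and highest SP bird and at 7.11, 18.7 and 48.3 FPKM in the SPH birds (−2.31 ± 0.58, exact permutation p = 0.00866). The entry ENSGALG00000028256 differed less, at 43.9 to 89.7 FPKM in SP and 28.2 to 93.9 FPKM in SPH birds (log2 difference −0.57, exact permutation p = 0.128). Whether reads were divided between these copies is not known here.

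CCR7, the CCL19 receptor of naive T cells and mature dendritic cells, was at 7.92, 10 and 19.6 FPKM in SP and 4.17, 5.41 and 8.47 FPKM in SPH birds as lowest, median and highest. SPH 3 alone overlapped the SP birds (−1.03 ± 0.24, exact permutation p = 0.00649). CCL17, a ligand of CCR4 on T cells, lay at 4.61 to 7.48 FPKM in SP and 2.99 to 6.03 FPKM in SPH birds (−0.54 ± 0.17, exact permutation p = 0.0152). Of 14 tested chemokine receptors 12 lay below 0 and 5 were past the limits, against 2.27% of all genes. The receptor count was 3 without SPH 1, SP 5 or SP 6 and at most 7. Of 16 tested chemokine ligand entries 13 lay below 0 and 5 were past the limits, against the same share. The ligand count was 4 without SPH 2, SP 1 or SP 6 and 8 without SP 2. No receptor or ligand was past the limits in the higher direction. TNFRSF8 (CD30), a receptor of activated lymphocytes, lay at 1.57 to 10.6 FPKM in SP and 0.267 to 1.70 FPKM in SPH birds (−2.14 ± 0.54, exact permutation p = 0.00866), and its ligand TNFSF8 at 1.37 to 2.75 and 1.06 to 2.13 FPKM (−0.64 ± 0.21, exact permutation p = 0.0152).

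T cell genes were lower by a smaller amount. Of 27 tested members 25 lay below 0 and 13 were past the unadjusted limits in the lower direction, against 2.27% of all genes. The median log2 difference was −0.51, and the count was 9 to 18 when a bird was left out. CD3 chains of the T cell receptor complex were among the abundant genes with the smallest p. CD3D was at 111, 128 and 150 FPKM as the lowest, median and highest SP bird and at 69.6, 88.9 and 114 FPKM in the SPH birds (−0.49 ± 0.13, exact permutation p = 0.00866). CD3E was at 98.4, 111 and 139 FPKM in SP and 74.9, 82.6 and 119 FPKM in SPH birds (−0.38 ± 0.12, exact permutation p = 0.0130). In 4 SPH birds for CD3D and 5 for CD3E the level was below that of every SP bird.

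Both co-receptors were lower. CD8A, of cytotoxic T cells, was at 8.89, 11.5 and 13.4 FPKM in SP and at 4.90, 7.43 and 9.19 FPKM in SPH birds (−0.70 ± 0.17, exact permutation p = 0.00433). CD4, of helper T cells, was at 4.09, 9.10 and 14.1 FPKM in SP and at 3.71, 4.70 and 6.38 FPKM in SPH birds (−0.77 ± 0.25, exact permutation p = 0.0238). The SP birds of CD4 spread widely, and SP 2 and SP 3 lay within the SPH range. TCF7, a transcription factor of naive and memory T cells, was at 7.17, 10.3 and 19.4 FPKM in SP and 2.99, 3.67 and 11.2 FPKM in SPH birds, with SPH 3 far above the other SPH birds (−1.33 ± 0.32, exact permutation p = 0.0108).

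Receptors that T cells use to respond to each other lay in the same direction. IL2RA, the alpha chain of the IL-2 receptor, was at 13.6 to 19.7 FPKM in SP and 7.63 to 13.9 FPKM in SPH birds (−0.60 ± 0.15, exact permutation p = 0.00649). CD28, the main co-stimulatory receptor, was at 3.11 to 6.98 and 2.31 to 4.24 FPKM (−0.77 ± 0.21, exact permutation p = 0.0130). IL21R, the receptor for the follicular helper cytokine IL-21, was at 4.46 to 16.5 and 2.91 to 7.27 FPKM (−1.01 ± 0.30, exact permutation p = 0.0152), and SH2D1A, the SLAM adaptor needed for T cell help to B cells, at 3.79 to 11 and 2.27 to 6.22 FPKM (−1.04 ± 0.31, exact permutation p = 0.0195). Of 24 tested cytokine receptors and ligands of lymphocytes, 19 lay below 0 and 8 were past the limits, against 2.27% of all genes. The count was 5 without SP 5.

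Cytotoxic genes did not lie on the lower side. Among 10 tested members 5 were above and 5 below 0, none was past the limits, and the median log2 difference was 0.04. GZMA, the granzyme of cytotoxic granules, was at 148 to 402 FPKM in SP and 215 to 690 FPKM in SPH birds (0.52 ± 0.34, exact permutation p = 0.206). GNLY, the granule protein NK-lysin, was at 646 to 1250 FPKM in SP and 843 to 1221 FPKM in SPH birds (0.20 ± 0.17, exact permutation p = 0.275). The spread between birds covered both differences.

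ITGA4, the alpha-4 chain of an integrin that holds lymphocytes in the gut wall, was at 6.73, 11.5 and 20.5 FPKM as the lowest, median and highest SP bird and at 3.47, 4.95 and 10.3 FPKM in the SPH birds (−1.07 ± 0.30, exact permutation p = 0.0130). Its gut partner ITGB7 was at 3.52, 8.94 and 19.9 FPKM in SP and 1.24, 2.79 and 8.79 FPKM in SPH birds (−1.53 ± 0.46, exact permutation p = 0.0173). Both genes belong to the plasma cell and IgA list. In it 14 of 18 tested members lay below 0 and 5 were past the limits, against 2.27% of all genes. In birds with W transcripts 16 lay below 0 (median −0.79, 9 past the limits and lower), and in birds without them 6 did (median 0.12, none past the limits and lower, 1 higher). The count of 5 was 3 without SPH 1, SPH 4 or SP 4 and 2 without SPH 2, SPH 5, SPH 6, SP 1, SP 5 or SP 6.

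The antibody-secretion genes of that list differed among birds more than between groups. JCHAIN, which joins polymeric IgA, was at 46.2, 138 and 545 FPKM in SP and 32.5, 57.8 and 278 FPKM in SPH birds (−0.90 ± 0.66, exact permutation p = 0.255). SP 5 and SP 6 were high, as were SPH 1 and SPH 3. PIGR, the epithelial receptor that carries IgA into the lumen, was at 233, 392 and 590 FPKM in SP and 144, 316 and 607 FPKM in SPH birds (−0.31 ± 0.32, exact permutation p = 0.405). POU2AF1, a B cell co-activator needed for antibody responses, was at 0.666 to 13.2 FPKM in SP and 0.213 to 4.23 FPKM in SPH birds (−1.58 ± 0.73, exact permutation p = 0.0974), and TNFSF13B, the ligand BAFF, at 2.21 to 13.2 and 2.11 to 4.20 FPKM (−0.79 ± 0.36, exact permutation p = 0.0844).

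Macrophage and dendritic cell genes were lower in part. Of 28 tested members 25 lay below 0 and 10 were past the limits, against 2.27% of all genes. The median log2 difference was −0.31, and the count was 7 to 12 with a bird left out. SPI1 (PU.1), a myeloid and B cell transcription factor, was at 25.4, 43.3 and 83.4 FPKM as the lowest, median and highest SP bird and at 17.5, 23.5 and 33.5 FPKM in the SPH birds (−0.83 ± 0.25, exact permutation p = 0.0152). CSF1R, the receptor that macrophages need for survival, was at 21.0, 25.5 and 39.5 FPKM in SP and 16.3, 18.0 and 22.6 FPKM in SPH birds (−0.51 ± 0.14, exact permutation p = 0.00649). Only SPH 6 overlapped the SP birds for CSF1R.

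Subunits of the phagocyte oxidase lay lower too. NCF1 was at 6.80 to 29.8 FPKM in SP and 4.72 to 10.1 FPKM in SPH birds (−1.06 ± 0.31, exact permutation p = 0.00866), and NCF4 at 2.22 to 12.7 and 1.28 to 2.68 FPKM (−1.20 ± 0.36, exact permutation p = 0.0108). TIMD4, a receptor by which resident macrophages take up dying cells, was at 5.67 to 19.8 FPKM in SP and 3.13 to 6.33 FPKM in SPH birds (−0.92 ± 0.29, exact permutation p = 0.0130). In contrast, the 2 most abundant members of the list, LGALS3 and CTSS, did not separate the groups, with exact permutation p = 0.929 and 0.450. All 10 tested heterophil genes lay below 0 and 1 was past the limits, against 2.27% of all genes. The count was 2 without SPH 3, SP 2 or SP 4, 3 without SP 3 and 4 without SPH 4. In birds with W transcripts 10 heterophil genes lay below 0 (median −0.90, 4 past the limits and lower). In birds without them 6 did (median −0.07, 1 past the limits and lower).

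DOCK2, the Rac activator that lymphocytes need to migrate, was at 9.01, 12.3 and 19.7 FPKM in SP and 6.21, 7.09 and 9.41 FPKM in SPH birds (−0.79 ± 0.18, exact permutation p = 0.00433). CYFIP2, a subunit of the WAVE actin regulator, was at 7.05, 9.89 and 15.0 FPKM in SP and 4.0, 5.43 and 7.31 FPKM in SPH birds (−0.81 ± 0.18, exact permutation p = 0.00649). LAPTM5, a lysosomal protein of blood cells, was at 87.9 to 177 and 61.7 to 98.5 FPKM (−0.59 ± 0.18, exact permutation p = 0.0195).

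NCL, which encodes the nucleolar protein nucleolin, was among the abundant genes picked for a small p. Its 6 SP birds lay between 150 and 155 FPKM with a median of 153, and its SPH birds between 115 and 142 FPKM with a median of 131. The groups did not overlap, while the difference was small (−0.24 ± 0.06, exact permutation p = 0.00216). ANP32B, a histone chaperone, was at 110 to 136 FPKM in SP and 101 to 126 FPKM in SPH birds (−0.25 ± 0.08, exact permutation p = 0.00866).

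Interferon-stimulated genes were mostly a little lower. Of 36 tested members 34 lay below 0 and 8 were past the limits, against 2.27% of all genes. The median log2 difference was −0.22. The count depended on single birds: it was 3 without SP 5, 4 without SPH 4, 5 without SPH 2, SPH 3, SP 2 or SP 3, and at most 10. LY6E, an interferon-induced membrane protein, was at 161, 211 and 265 FPKM in SP and 52.7, 139 and 180 FPKM in SPH birds (−0.83 ± 0.26, exact permutation p = 0.00649). For LY6E 5 SPH birds lay below every SP bird, and SPH 6 was the exception.

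The antiviral effectors spread more. IFIT5, which binds viral RNA ends, was at 51.8 to 152 FPKM in SP and 20.3 to 81.5 FPKM in SPH birds (−0.94 ± 0.34, exact permutation p = 0.0325). RSAD2 (viperin) was at 6.36 to 15.6 and 2.76 to 10.5 FPKM (−0.83 ± 0.30, exact permutation p = 0.0390), and its chromosome 3 neighbour CMPK2, a mitochondrial nucleotide kinase, at 43.6 to 112 and 18.0 to 75.3 FPKM (−0.85 ± 0.34, exact permutation p = 0.0455). IFITM3, which blocks virus entry, was at 304 to 651 FPKM in SP and 223 to 444 FPKM in SPH birds (−0.59 ± 0.22, exact permutation p = 0.0346). Each of these 4 genes overlapped between the groups.

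**Figure D3:**
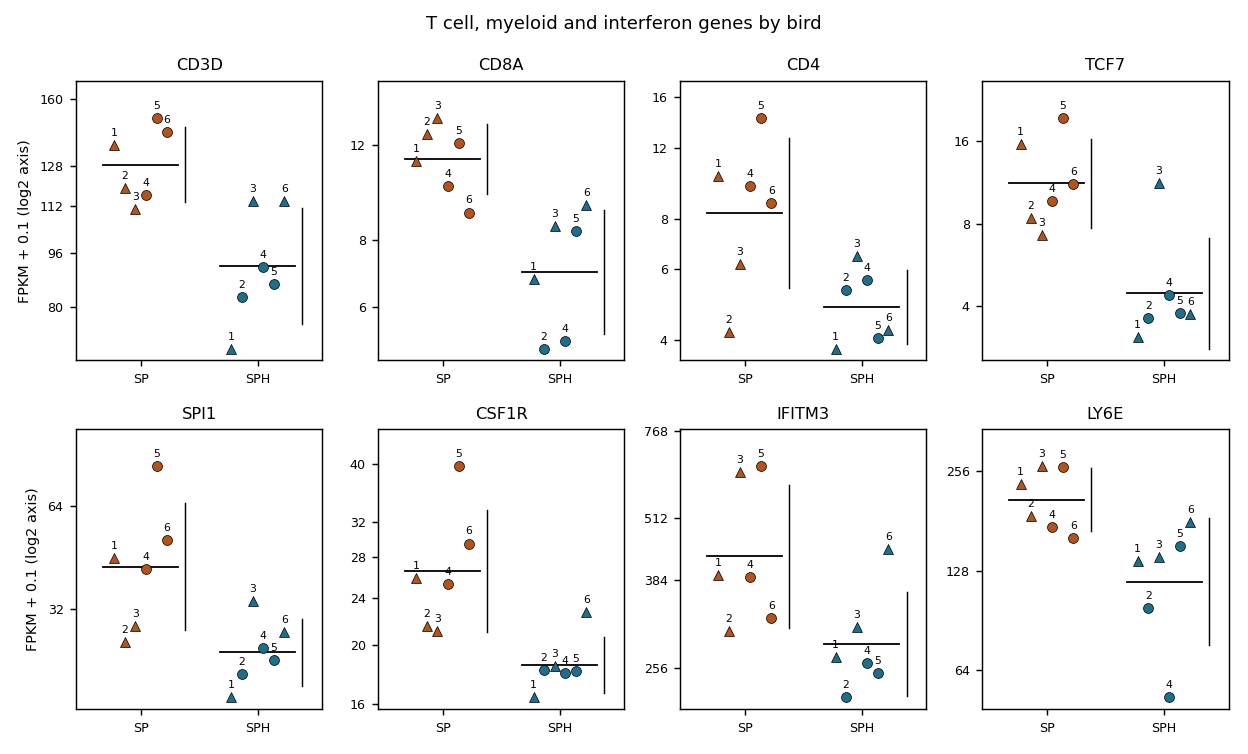
FPKM + 0.1 on a log2 axis for 4 T cell genes, 2 myeloid genes and 2 interferon genes in the SP and SPH birds, with the same symbols and lines as the plot of follicle genes. SP 5 is the highest SP bird for CD3D, CD4, TCF7, SPI1, CSF1R and IFITM3, and the SPH birds lie lower with partial overlap.

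Antigen presentation genes showed no common direction, with 10 of 18 tested members above and 8 below 0. DMB1, a chaperone that loads peptides on MHC class II (chromosome 16), was the 1 member past the limits and was higher. It was at 51.6, 77.5 and 102 FPKM in SP and 68.9, 120 and 160 FPKM in SPH birds as lowest, median and highest (0.59 ± 0.22, exact permutation p = 0.0390).

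On the higher side, 4 genes past the limits came from 1 list. Of 33 tested members of the sugar uptake and metabolism list 27 lay above 0, 4 were past the limits in the higher direction against 0.938% of all genes, and none in the lower, with 3 to 5 when a bird was left out. The median log2 difference of the list was 0.11. Among birds with W transcripts 7 members were past the limits and higher and 2 lower, with 12 of 33 below 0. Among birds without them 1 was higher and 1 lower, with 7 below 0. No SPH bird lay below the median SP bird in the mean level of the list.

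KHK, ketohexokinase, phosphorylates fructose in the first step of its breakdown (chromosome 3, 104468853 to 104473705). It was at 63.3, 79.2 and 126 FPKM as the lowest, median and highest SP bird and at 114, 146 and 174 FPKM in the SPH birds. SP 2 alone reached the SPH range, and the log2 difference was 0.76 ± 0.16 (exact permutation p = 0.00433). TKFC, a triokinase that acts on the glyceraldehyde formed later in the pathway, was at 49.2, 64.0 and 126 FPKM in SP and 93.2, 113 and 127 FPKM in SPH birds (0.65 ± 0.18, exact permutation p = 0.0152), again with SP 2 as the only overlapping SP bird.

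MLXIPL (ChREBP), a transcription factor that responds to sugar, was at 28.4, 59.4 and 66.2 FPKM in SP and 66.1, 74.8 and 88.1 FPKM in SPH birds (0.57 ± 0.19, exact permutation p = 0.00433). Its lowest SPH bird lay just under the highest SP bird, and SP 5 and SP 1 were far below the other SP birds. SLC5A11, a sodium-coupled inositol transporter of the glucose transporter family, was at 53.6, 69.3 and 89.5 FPKM in SP and 63.8, 116 and 158 FPKM in SPH birds (0.62 ± 0.20, exact permutation p = 0.0238). GBE1, the glycogen branching enzyme, is outside the list and was chosen after its values were seen. It was at 11.8 to 22.9 FPKM in SP and 17.8 to 26.7 FPKM in SPH birds (0.53 ± 0.16, exact permutation p = 0.0152).

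A set of 4 genes was higher in every SPH bird than in any SP bird. PCOLCE2, which enhances procollagen processing, was at 2.28, 2.79 and 3.44 FPKM as the lowest, median and highest SP bird and at 3.61, 4.94 and 7.51 FPKM in the SPH birds (0.83 ± 0.16). MAP3K6, a stress kinase, was at 3.75, 5.42 and 5.98 FPKM in SP and 6.87, 8.03 and 10.2 FPKM in SPH birds (0.63 ± 0.13). KIFC3, a kinesin motor of epithelial junctions, was at 6.09, 9.47 and 10.4 FPKM in SP and 10.8, 13.1 and 14.7 FPKM in SPH birds (0.56 ± 0.14). IL17D, a cytokine of the IL-17 family, was at 4.79, 6.94 and 7.78 FPKM in SP and 8.19, 10.6 and 12.7 FPKM in SPH birds (0.66 ± 0.15). The exact permutation p was 0.00216 for each, which only restates that the groups did not overlap. Under regrouping alone a gene separates fully at that rate, counting both directions together. These are 4 of the 15 genes of that kind (0.112% of genes tested), about as many as regrouping alone would give. The separation of these 4 genes is therefore a description and not a proven difference. Of 8 tested genes of the IL-17 and IL-22 axis, IL17D was the 1 past the limits, and the other members were spread on both sides of 0.

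SCG2, secretogranin II of hormone and nerve vesicles, had the largest difference among the higher genes named. It was at 28.8, 33.2 and 45.6 FPKM as the lowest, median and highest SP bird and at 44.6, 70.2 and 87.3 FPKM in the SPH birds, with SPH 4 as the only overlapping bird (0.89 ± 0.19, exact permutation p = 0.00433). It was the 1 member past the limits among 18 tested enteroendocrine genes, of which 8 lay above and 10 below 0. SLC38A3, a transporter of glutamine, was at 2.62, 3.13 and 4.95 FPKM in SP and 4.65, 5.24 and 5.57 FPKM in SPH birds (0.64 ± 0.13, exact permutation p = 0.00433). Without SP 2, the SP bird at 4.95 FPKM, limma called SLC38A3 alone, with a log2 difference of 0.76.

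The other higher genes with the smallest p had modest differences. WWP1, a ubiquitin ligase, was at 24.7 to 37.9 FPKM in SP and 36.6 to 53.0 FPKM in SPH birds (0.52 ± 0.12, exact permutation p = 0.00649). HSPB7, a small heat shock protein of muscle, was at 7.10 to 10.5 and 9.98 to 17.2 FPKM (0.65 ± 0.15, exact permutation p = 0.00433), and DUSP26, a phosphatase, at 1.41 to 3.02 and 2.84 to 4.13 FPKM (0.65 ± 0.17, exact permutation p = 0.00649). CORO6, a coronin that binds actin, was at 1.97 to 3.10 and 3.07 to 4.39 FPKM (0.54 ± 0.15, exact permutation p = 0.00433), and LDLRAD1 at 1.17 to 2.27 and 1.73 to 3.68 FPKM (0.80 ± 0.21, exact permutation p = 0.0108).

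The other genes with a mean of at least 100 FPKM and the smallest p on this side were higher by less than 0.5 on the log2 scale. EPS8L3, a partner of actin bundling, was at 106 to 165 FPKM in SP and 154 to 199 FPKM in SPH birds (0.38 ± 0.12, exact permutation p = 0.0173). TAGLN (transgelin), a smooth muscle protein, was at 262 to 390 and 372 to 495 FPKM (0.32 ± 0.11, exact permutation p = 0.0108), and CSRP1, a muscle LIM protein, at 221 to 328 and 299 to 381 FPKM (0.27 ± 0.11, exact permutation p = 0.0195). C6orf62 and MGAT4D were higher by 0.23 and 0.27 (exact permutation p = 0.0216 and 0.0346).

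**Figure D4:**
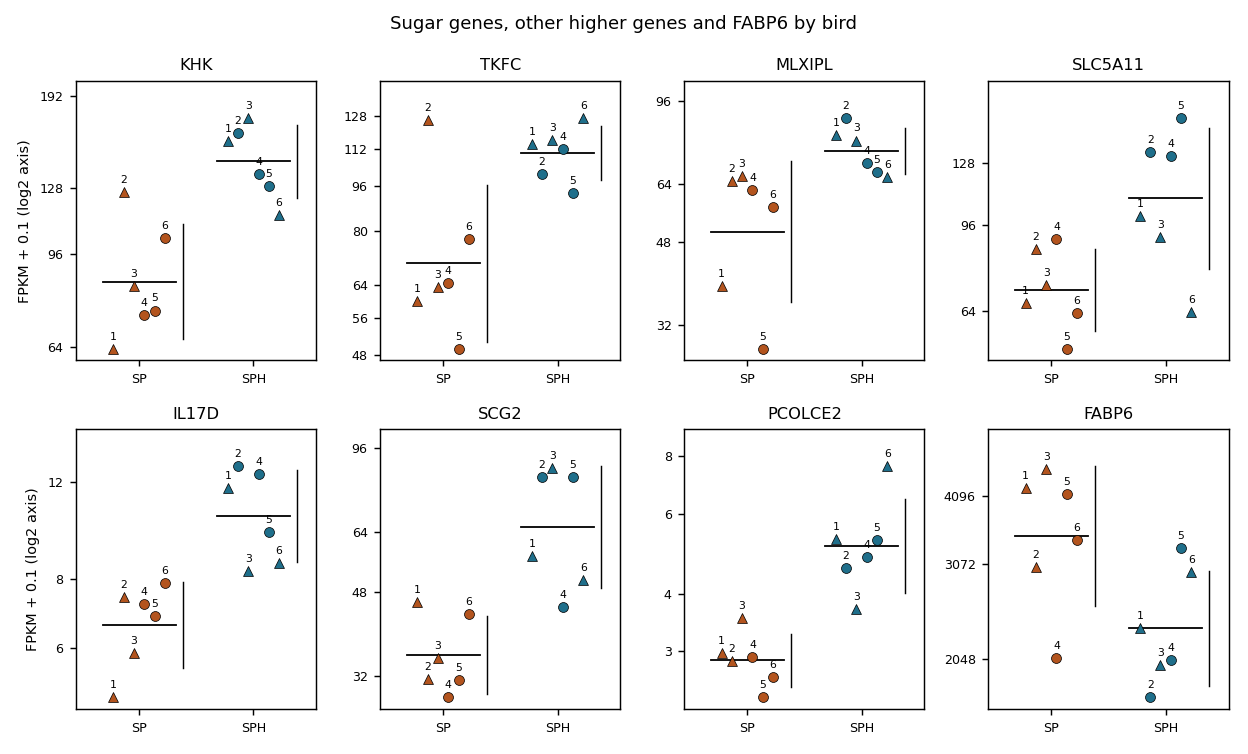
FPKM + 0.1 on a log2 axis for 4 sugar genes, 3 other higher genes and FABP6 in the SP and SPH birds, with the same symbols and lines as the plot of follicle genes. SP 2 reaches the SPH range for KHK and TKFC, no bird overlaps for IL17D and PCOLCE2, and FABP6 is lower in SPH birds with overlap.

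Few epithelial genes were past the limits. FABP6, the bile acid carrier of ileal enterocytes, was at 2062, 3755 and 4584 FPKM as the lowest, median and highest SP bird and at 1743, 2188 and 3278 FPKM in the SPH birds (−0.56 ± 0.22, exact permutation p = 0.0346). SP 2 and SP 4 lay within the SPH range. It was the only one of 11 tested bile acid genes past the limits, with 6 members above and 5 below 0. PLA2G2E, a secreted phospholipase of the epithelial defence list, was at 2015, 4101 and 4641 FPKM in SP and 4125, 4912 and 6945 FPKM in SPH birds (0.59 ± 0.25, exact permutation p = 0.0541).

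TFF2, a trefoil peptide that protects mucus, was at 2.22 to 16.6 FPKM in SP and 1.22 to 6.75 FPKM in SPH birds (−1.33 ± 0.55, exact permutation p = 0.0563). It was the only goblet cell gene past the limits, while 10 of the 12 tested genes lay above 0. TFF2 is also a member of the epithelial defence list, where 6 of 14 tested genes lay above and 8 below 0, with PLA2G2E past the limits in the higher and TFF2 in the lower direction. TF, transferrin, was at 13.9 to 22.6 and 11.1 to 17.4 FPKM (−0.51 ± 0.14, exact permutation p = 0.0152). ASCL2, a transcription factor of intestinal stem cells, was at 0.746 to 2.13 and 0.353 to 1.12 FPKM (−0.98 ± 0.30, exact permutation p = 0.00866). Only 3 to 23 reads in a bird stood behind ASCL2, and it reached the filter through its SP birds, so its direction is no support. It was the only one of 15 tested stem cell genes past the limits, and 10 of the 15 lay above 0.

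CLDN1, a tight junction claudin, was at 1.87, 2.45 and 3.05 FPKM in SP and 2.41, 3.17 and 8.19 FPKM in SPH birds (0.71 ± 0.29, exact permutation p = 0.0281). SPH 1 at 6.98 and SPH 6 at 8.19 FPKM were far above the other SPH birds, and the log2 difference was −0.02 among the birds with W transcripts. Of 22 tested tight junction genes CLDN1 was the 1 past the limits, 18 lay above 0 and the median was 0.11. That median was 0.26 in birds with W transcripts (4 genes below 0) and −0.06 in birds without (13 below 0). No gene tested here carries the symbol CLDN5. NPAS2, a partner of the clock factor BMAL1, was at 9.61 to 21.9 and 17.9 to 34.5 FPKM (0.52 ± 0.22, exact permutation p = 0.0606), as the 1 of 21 clock genes past the limits.

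Absorptive lists lay slightly above 0 without a gene past the limits. Of 23 tested brush border enzymes 21 lay above 0 (median 0.15), as did 21 of 30 lipid absorption genes (0.11) and 23 of 32 cholesterol synthesis genes (0.08). The lipid absorption list had a median of −0.001 without SP 5, of 0.37 in birds with W transcripts (3 genes below 0) and of −0.23 in birds without (23 below 0). For brush border enzymes the median was 0.48 in birds with W transcripts, with 0 below 0 and 4 past the limits and higher. In birds without them it was −0.17, with 18 below 0 and 4 past the limits and lower. ANPEP, aminopeptidase N and an abundant brush border enzyme, was at 546 to 1300 FPKM in SP and 796 to 1413 FPKM in SPH birds (0.37 ± 0.21, exact permutation p = 0.121). Among 59 tested detoxifying and antioxidant enzymes 34 lay above and 25 below 0, with none past the limits. Amino acid and peptide transporters were at 8 above and 7 below 0 of 15, also with none past the limits.

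Markers of other cell types of the gut wall lay on the other side of 0 from the lymphocyte genes. Of 21 tested smooth muscle genes 19 lay above 0 (median 0.20), of 30 fibroblast and matrix genes 26 (0.14), and of 14 endothelial genes all 14 (0.13), with none past the limits. The summed FPKM of the smooth muscle genes was 2133 to 3103 in SP and 2830 to 3468 in SPH birds. That of the B cell list was 195 to 567.6 in SP and 162.9 to 237.6 in SPH birds. The mean level of the smooth muscle list was −0.093 in SP and 0.093 in SPH birds. Bird by bird it did not run opposite to the B cell list throughout. SP 5 and SP 1, high for B cell genes, were at 0.025 and 0.042. SPH 3, the highest SPH bird for B cell genes, was at −0.09, the lowest of the SPH birds. The part of smooth muscle in the lower lymphocyte genes was not tested. Cell cycle genes lay below 0 in 42 of 46 tested (median −0.15, none past the limits), and heat shock genes in 24 of 38. Genes of the mitochondrial genome lay above 0 in 12 of 13, red blood cell genes in 6 of 8, enteric neuron and glia genes in 8 of 10, stem cell genes in 10 of 15, immediate early genes in 8 of 20 and iron genes in 3 of 15.

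**Figure D5:**
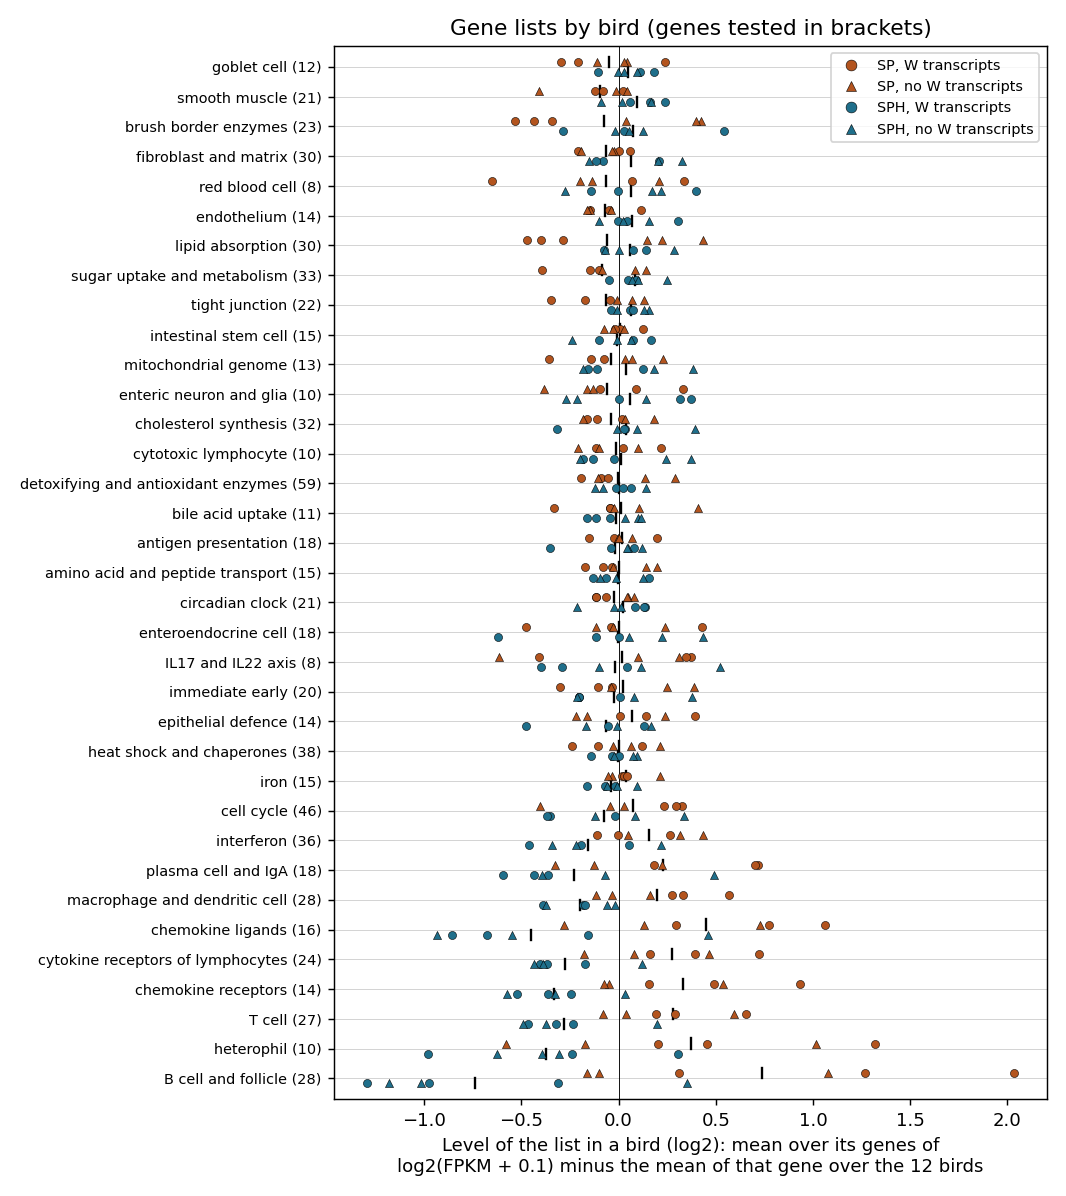
Level of each gene list in each bird, as the mean over its genes of log2(FPKM + 0.1) minus the mean of that gene over the 12 birds, with SP birds above and SPH birds below each line and black ticks at the group means. Lists are ordered by their median log2 difference. B cell and follicle genes have the widest range over the birds, from −1.30 to 2.04.

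The 3 birds with and the 3 without W transcripts in each group were also compared apart. The median log2 difference of the B cell list was −1.37 in birds with W transcripts and −0.44 in those without. For T cell genes it was −0.76 and −0.42, for interferon genes −0.20 and −0.36, for cell cycle genes −0.52 and 0.21 (45 and 2 of 46 genes below 0), for plasma cell and IgA genes −0.79 and 0.12, for lipid absorption genes 0.37 and −0.23, and for brush border enzymes 0.48 and −0.17. Of the 305 lower genes 255 were past the limits in the birds with W transcripts and 36 in the birds without. By list, members past the limits and lower numbered 20 and 2 for B cell genes and 16 and 2 for T cell genes. They numbered 15 and 1 for macrophage and dendritic cell genes, 9 and 0 for chemokine ligands and 8 and 1 for chemokine receptors. Interferon genes were at 6 and 8. A test of whether the honokiol difference itself depended on sex gave 1 gene with an adjusted p under 0.05 (limma, Benjamini-Hochberg). Without adjustment 2201 of the 13431 genes had a p under 0.05 in it, more than the 1267 of the comparison of SPH and SP birds. Whether the list medians or counts differ between the subsets was not tested.

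Levels of the other groups are given side by side and without a test, since any contrast with SP uses the same SP birds. The groups also differ in sex makeup, with W transcripts in 6 of 6 CTL and 4 of 6 SPM birds against 3 of 6 in SP and in SPH, so sex and group cannot be told apart in these levels. CXCL13 averaged 29.4 FPKM in SP, 3.62 in SPH, 13.3 in CTL and 3.71 in SPM birds. LY6E averaged 214, 127, 129 and 140 FPKM in the same order, KHK 87.4, 146, 123 and 147 FPKM, and SCG2 35.8, 67.8, 33.9 and 63.5 FPKM. The SPH mean was near the SPM mean for these genes, while for SCG2 the CTL mean lay with that of SP and not with that of SPH. For CXCL13 the SPH mean was raised by SPH 3 and lay far above the SPH median. These genes do not stand for all: others, given next, differed between SPM and SPH birds before adjustment.

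Honokiol and magnolol, isomers fed at the same dose, were compared directly over the 83 genes followed here. No difference of SPM minus SPH had an adjusted p under 0.994 (limma, Benjamini-Hochberg over 13431 genes), and over all genes 0 passed 0.05 after adjustment and 613 did before it. For 8 of the 83 genes the unadjusted p was under 0.05. IFIT5 was higher in SPM than in SPH birds by 0.68 (95% interval 0.01 to 1.35), RSAD2 by 0.62 (0.02 to 1.21) and CMPK2 by 0.65 (0.04 to 1.26). HSPB7 differed by −0.56 (−0.94 to −0.19), DUSP26 by −0.48 (−0.82 to −0.13), PLA2G2E by −0.51 (−1.0 to −0.02), ANP32B by −0.26 (−0.51 to −0.02) and DUSP4 by −0.63 (−1.22 to −0.04). CXCL13 differed by −0.62 (−3.42 to 2.18) and KHK by −0.02 (−0.44 to 0.41), and the median width of the interval over the 83 genes was 1.04 on the log2 scale. Such intervals do not show that the isomers acted alike.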

How the data were processed

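Ileum RNA was extracted with Trizol and sequenced by the authors. The labels name a TruSeq kit and the study's methods a NEBNext kit. The values were deposited as FPKM per gene and bird. The submitters' processing notes name the aligner Bowtie 0.12.2 and the builds GRCg6a (chicken) and mm8 (mouse) without their roles. The table holds chicken gene identifiers, and its coordinates were read as GRCg6a. The counter behind the FPKM was not stated. DESeq2 was the test of the authors, who reported differentially expressed genes between the SPH and SP groups. By RT-qPCR the authors also reported lower CCR7 and JCHAIN and higher CLDN1 and CLDN5 with honokiol than in the SP group. The absence of called genes here was found with limma and was not compared with DESeq2 or with RT-qPCR. The table used here had no comparison columns.

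FPKM multiplied by gene length gave whole reads within 0.001 for 100% of 440917 values above 0, which served for depth and for the limma-voom alternative. The 13431 genes averaging 1 FPKM or more in the SP and SPH birds entered limma 3.58.1 (R 4.3.3) on log2(FPKM + 0.1), with Benjamini-Hochberg adjustment over all of them. This scale understates differences of low genes. A gene near 0 in 1 group could pass the filter only through the other group. The limits, an adjusted p under 0.05 and a log2 difference beyond 0.5, are the study's. Single genes were also tested by exact permutation (numpy 2.4.6, Python 3.11.15). Birds were taken to carry W transcripts where W genes summed to over 100 FPKM.

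Named genes were the 12 with a symbol and the smallest p in each direction beyond 0.5, the 6 in each direction among genes of at least 100 FPKM, for each list described up to 6 members past the limits and the 2 most abundant, and KHK, FABP6, IL17D, CCR7, CD4, JCHAIN, CLDN1 and CLDN5. The members and the 36 gene lists were chosen with earlier results of these data known. The fit was tested on simulated data. Alternatives changed the constant, filter, scaling, birds and tool. Results for a few genes are not reported here.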

Additional observations from a re-analysis of the deposited data

Results flagged for a closer look

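A single bird stood apart from the rest of its group of 6 in 8 of 166 groups looked at, where its gap to the nearest bird, as a share of the group's range, was above Dixon's 95% critical value. Chance gives about 1 in 20 groups. SPH 3 was the highest SPH bird for TCF7 (11.2 FPKM against 4.28 in the nearest bird, 0.733 of the range), CD3E (119 against 88.2 FPKM, 0.649), IL21R (7.27 against 3.84 FPKM, 0.698) and NCF1 (10.1 against 5.78 FPKM, 0.734). SPH 6 was the highest SPH bird for CSF1R (22.6 against 18.4 FPKM, 0.630). On the SP side the lowest bird stood apart for ANP32B (SP 2, 110 against 127 FPKM, 0.661), MAP3K6 (SP 1, 3.75 against 5.19 FPKM, 0.695) and TAGLN (SP 3, 262 against 340 FPKM, 0.652).

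DUSP4, a phosphatase that acts on MAP kinases, was chosen after its values were seen. It was the 1 gene whose honokiol difference itself differed, after adjustment, between birds with and without W transcripts (limma interaction −1.63, Benjamini-Hochberg adjusted p = 0.0446). Among birds with W transcripts it was at 9.36, 7.49 and 8.65 FPKM in SP and 5.25, 5.27 and 4.49 FPKM in SPH birds, a log2 difference of −0.75. Among the others it was at 4.35, 4.15 and 3.47 FPKM in SP and 7.70, 7.92 and 6.57 FPKM in SPH birds, a difference of 0.88. The birds did not overlap in either subset, and over all 12 birds the difference was 0.06.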

How the results depend on the processing

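No gene was called under any alternative except with only the birds without W transcripts, which gave 5, and with single birds left out, which gave 0 to 1 (1 without SP 2). The 305 lower genes numbered 172 with a mean FPKM of at least 5, 489 with no filter, 762 and 198 with only the birds with and without W transcripts, and 186 (without SP 5) to 430 (without SP 2) with single birds left out. The 126 higher genes numbered 78 with a constant of 1, 274 with a mean FPKM of at least 0.1, 56 with at least 5, 326 with no filter, 466 and 365 with only the birds with and without W transcripts, 190 with array weights and 110 to 163 with single birds left out. The cause was not tested, apart from filters testing more or fewer genes.

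Of 83 genes followed over 27 alternatives, 8 took the other sign in any. Without the birds with W transcripts JCHAIN was at 0.962, PIGR at 0.271 and POU2AF1 at 0.239. With only these birds CLDN1 was at −0.016, GZMA at −0.114, GNLY at −0.087 and DUSP4 at −0.751. With single birds left out DUSP4 ranged from −0.082 to 0.199 and BLNK reached 0.018 from a lowest value of −0.085.

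Replicate numbers are only shared numbers here. The correlation of same-numbered birds was 0.16, −0.206, 0.0895, 0.052, 0.142 and −0.11, and no bird correlated best with its own number. With the replicate block 0 genes were called, 283 were lower and 133 higher. Genes of a few FPKM rest on few reads, which limits their values.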

Other observations

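An immunoglobulin entry with no symbol, ENSGALG00000050515, which the table annotates with an immunoglobulin C1-set domain, was chosen after its values were seen. It was at 94.6, 70.4, 56.3, 348, 592 and 973 FPKM in SP 1 to SP 6 and at 45.8, 66.9, 388, 22.6, 6.3 and 40.7 FPKM in SPH 1 to SPH 6. SP 4, SP 5, SP 6 and SPH 3 were high, and the groups overlapped (log2 difference −2.23 ± 0.94, SE, two-sided exact permutation p = 0.0541). The log2 difference was −4.78 among birds with W transcripts and 0.32 among birds without.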
